A study of Mus musculus with 6 samples.

Results

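A list of 40 interferon response genes was followed through RNA-seq libraries of cultured mouse bone cells, labelled as Prx1+ MSCs (mesenchymal stromal cells) and carrying floxed or wild-type alleles of the transcriptional repressor gene Zeb1. All 40 names occurred once each among the 54532 genes of the deposited table, and 38 passed a filter on low values. Members are given by gene name, with no threshold on a measured value, but the list was drawn up with earlier results of these data known.

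The tested libraries came from Zeb1Prx1 mice (Prx1-Cre+; ROSA-YFP; Zeb1fl/fl), and the libraries they were set against came from WT mice (Prx1-Cre+; ROSA-YFP; Zeb1wt/wt), with 3 of each and no treatment. Both genotypes carried the same Cre driver, active in limb mesenchyme, and the same fluorescent reporter, so the floxed Zeb1 alleles were the labelled difference. Chips of compact bone from femur and tibia were digested with collagenase and cultured, and cells were sorted by fluorescence before RNA was taken. The labels name the sorted signal GFP and the reporter YFP, and a sort on the reporter of this Cre would be meant to leave macrophages out. The labels give no age or sex, and they do not say if each replicate had its own animal. The p-values below therefore cover the spread among these libraries alone, which may be technical.

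Interferons are secreted signals of infection. Type I interferons act through a receptor whose kinases activate STAT2, which works with IRF9 at interferon-stimulated response elements, while interferon gamma has a receptor of its own and acts at gamma-activated sites. The induced genes encode sensors of viral RNA and DNA, enzymes and binding proteins that block viral replication, GTPases that attack intracellular vacuoles, and the machinery that loads peptides on MHC class I. Many are also transcribed at a low tonic level in uninfected stromal cells and macrophages.

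The letters of these elements were present upstream of many members. In RefSeq promoters (GRCm38.p6), 32 of the 40 members had an entry, with 38 promoters between them, and the 250 bases before each start were searched on both strands. Dhx58, Zbp1, Usp18, Oas2, Mx1, Mx2, Rtp4 and Parp14 had none in the table. The response element core (GAAA, any 2 bases, then GAAA) stood in 13 of the 38 member promoters (34.2%), each of a different gene, and in 2.98% of all 32851 promoters. The gamma-activated site TTCNNNGAA stood in 9 member promoters (23.7%), against 7.02% of all. The E-box CAGGTG, a sequence bound by Zeb1, stood in 8 (21.1%), against 17.2% of all. Its genes were Bst2, Cmpk2, Irf9, Isg20, Oasl2, Psmb9, Tap1 and Trim25. All but Isg20 and Trim25 had FPKM values that overlapped between genotypes, and E-box stretches are shown for Isg20 and Trim25 alone. Matches of one motif may overlap each other, as they do upstream of Isg15. The stretches that follow are shown because they belong to the members whose values the results turn on. Capitals mark every match of the motif named for the stretch, and other motifs are not marked. In the Bst2 stretch, ttccagGAA is also a match of the gamma-activated site.
Isg15, response element, chr4:156200855-156200904, minus strand: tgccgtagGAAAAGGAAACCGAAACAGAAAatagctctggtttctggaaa
Ifit1, response element, chr19:34640784-34640833, plus strand: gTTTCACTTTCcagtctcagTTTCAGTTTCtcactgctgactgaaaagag
Ifit3, response element, chr19:34583387-34583436, plus strand: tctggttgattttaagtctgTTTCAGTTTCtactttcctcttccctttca
Oas1a, response element, chr5:120907526-120907575, minus strand: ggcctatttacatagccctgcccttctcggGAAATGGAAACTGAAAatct
Bst2, response element, chr8:71537567-71537616, minus strand: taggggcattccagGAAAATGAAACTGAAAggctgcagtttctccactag
Isg20, gamma-activated site, chr7:78913330-78913379, plus strand: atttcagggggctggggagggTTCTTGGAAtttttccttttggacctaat
Isg20, E-box, chr7:78914167-78914216, plus strand: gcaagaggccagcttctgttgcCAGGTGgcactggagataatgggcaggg
Trim25, E-box, chr11:88999194-88999243, plus strand: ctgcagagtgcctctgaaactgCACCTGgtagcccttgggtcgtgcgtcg
The Isg20 stretches belong to different promoters. The gamma-activated site lies before the RefSeq start at 78913424, and the E-box lies inside the gene, before the start at 78914235. A match describes letters and is not evidence of binding.

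The libraries held 15702185 to 18354894 assigned fragments in Zeb1Prx1 and 14724357 to 17547064 in WT. Zeb1, which checks the labels, had 1.92, 1.59 and 2.84 FPKM (fragments scaled to gene length and to library size) in Zeb1Prx1 replicates 1, 2 and 3, against 6.61, 10.3 and 7.12 FPKM in WT, so it was at 0.264 of the WT mean and still detected in each mutant library. Xist had 1.47, 0.00309 and 12.6 FPKM in Zeb1Prx1, against 26.8, 40.4 and 32.9 FPKM in WT. The X-linked transcript thus differed between genotypes and also among the Zeb1Prx1 libraries, with 425, 1 and 3454 fragments. The labels give no sex, and the part of Xist or of sex in the results was not tested. Of 20 genes listed for skeletal stroma, the labelled cell type, 16 reached 1 FPKM in all 6 libraries, Prrx1 among them, and their summed level was 7777 to 9023 FPKM in Zeb1Prx1 and 4324 to 7822 FPKM in WT. Of 25 macrophage and monocyte genes, 22 also reached 1 FPKM in all 6 libraries, with sums of 11091 to 22026 FPKM in Zeb1Prx1 and 13476 to 16383 FPKM in WT, and Ly6c2 stayed under 0.1 FPKM. The macrophage sum was the larger in each library, although the label names stroma, but Lyz2 alone gave most of it. Lyz2 had 7034, 16368 and 9156 FPKM in Zeb1Prx1, against 8118, 10490 and 10017 FPKM in WT. The lists differ in size and genes, so their sums do not compare cell content. The libraries therefore held transcripts of both cell types, and in bulk RNA fewer cells of a type and less RNA per cell cannot be told apart.

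Set against WT, the interferon response genes of Zeb1Prx1 libraries gave no common shift, and Isg20 was the exception on the higher side. By limma on log2(FPKM + 1), with p adjusted over 12534 tested genes, 0 of 38 members passed the threshold of 0.05 (smallest adjusted p = 0.247), and 0% of all tested genes passed. Voom on recovered fragments also called 0 members. At an unadjusted p under 0.05 by limma, 3 members were counted, against 15.1% of all tested genes. One of the 38 was higher (8.15% of all genes) and 2 were lower (6.98% of all genes). The same 3 were the members whose genotypes did not overlap, 1 higher (12.6% of all genes) and 2 lower (11.8%). The median log2 change over the 38 members was 0.03, beside 0.02 over all tested genes. That median was 0.26 without Zeb1Prx1 replicate 1, -0.13 without Zeb1Prx1 replicate 2, -0.03 without WT replicate 1 or WT replicate 2, and 0.20 without WT replicate 3. The change was above 0 for 21 of 38 members and for 6500 of 12534 genes. Rescaling libraries to an equal FPKM sum moved the median of all genes to -0.12 and that of the members to -0.13, with 12 members and 4582 genes then above 0. For 35 of the 38 members the change was smaller than the larger of the SDs within a genotype, which held for 60.7% of all tested genes.

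**Figure D1:**
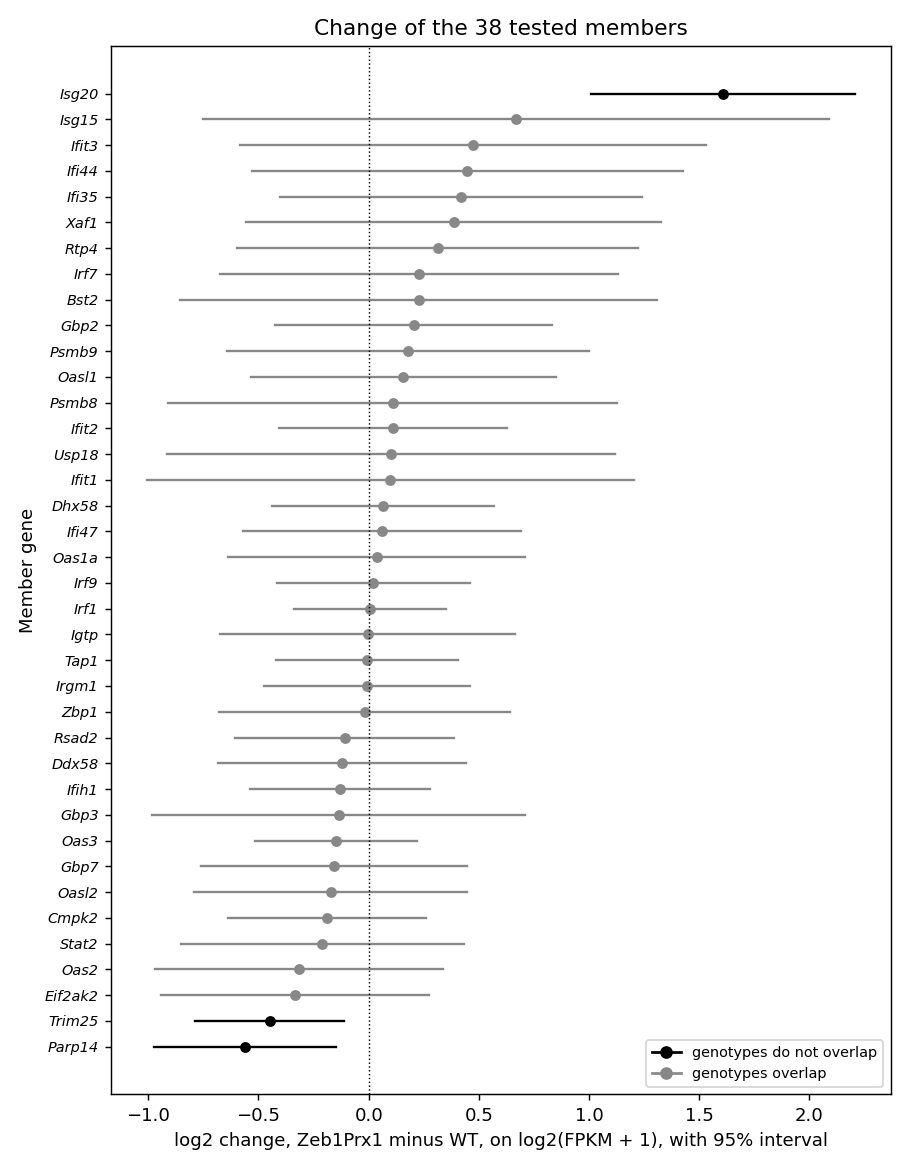
Fitted log2 change (Zeb1Prx1 minus WT, horizontal axis, on log2(FPKM + 1)) of the 38 tested members with its 95% interval, black where the genotypes did not overlap. Isg20 lies at 1.61, Trim25 at -0.45 and Parp14 at -0.56, and the intervals of the other members include 0.

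Isg20 (ENSMUSG00000039236, mm10 chromosome 7, 78913424 to 78920396, plus strand) encodes an exonuclease that degrades single-stranded RNA. It had 5.89, 6.26 and 11.9 FPKM in Zeb1Prx1, from 176, 210 and 339 fragments, against 2.03, 1.78 and 1.72 FPKM in WT, from 69, 51 and 49 fragments. Each Zeb1Prx1 library lay above each WT library, and the WT libraries lay close together. Means were 8.03 ± 3.39 FPKM in Zeb1Prx1 and 1.84 ± 0.164 FPKM in WT (SD, n = 3 each), a 4.36-fold difference and a log2 change of 1.61 (SE 0.25, 95% interval 1.01 to 2.21). It did not pass over all genes (limma adjusted p = 0.247). With library weights it did (limma adjusted p = 0.0328), and so did 447 of all tested genes (3.57%). The weight was least for Zeb1Prx1 replicate 2 (0.226) and largest for Zeb1Prx1 replicate 3 (2.82), the library where Isg20 was highest. Over all alternatives in which it was tested the adjusted p lay between 0.0328 and 0.54 and the log2 change between 1.31 and 1.99.

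Trim25 and Parp14 were the members on the lower side. Trim25 (ENSMUSG00000000275, chromosome 11, 88999376 to 89020293, plus strand) encodes a ubiquitin ligase that activates the RNA sensor RIG-I. It had 19.2, 16.4 and 18.3 FPKM in Zeb1Prx1, against 22.3, 26.2 and 26.3 FPKM in WT, without overlap. Its log2 change was -0.45 (SE 0.14, limma adjusted p = 0.278). Parp14 (ENSMUSG00000034422, chromosome 16, 35832874 to 35871544, minus strand) encodes an ADP-ribosyltransferase. It had 9.06, 8.25 and 9.14 FPKM in Zeb1Prx1, against 10.6, 14.4 and 16.0 FPKM in WT, also without overlap, and a log2 change of -0.56 (SE 0.17, limma adjusted p = 0.278). Without WT replicate 2 or WT replicate 3, 0 members on the lower side had an unadjusted p under 0.05. In either direction, 1118 of 12285 and 1135 of 12269 genes had such a p, in the same order. After a trend with gene length had been taken out of each library, an alternative chosen after seeing the data, Parp14 overlapped between genotypes.

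**Figure D2:**
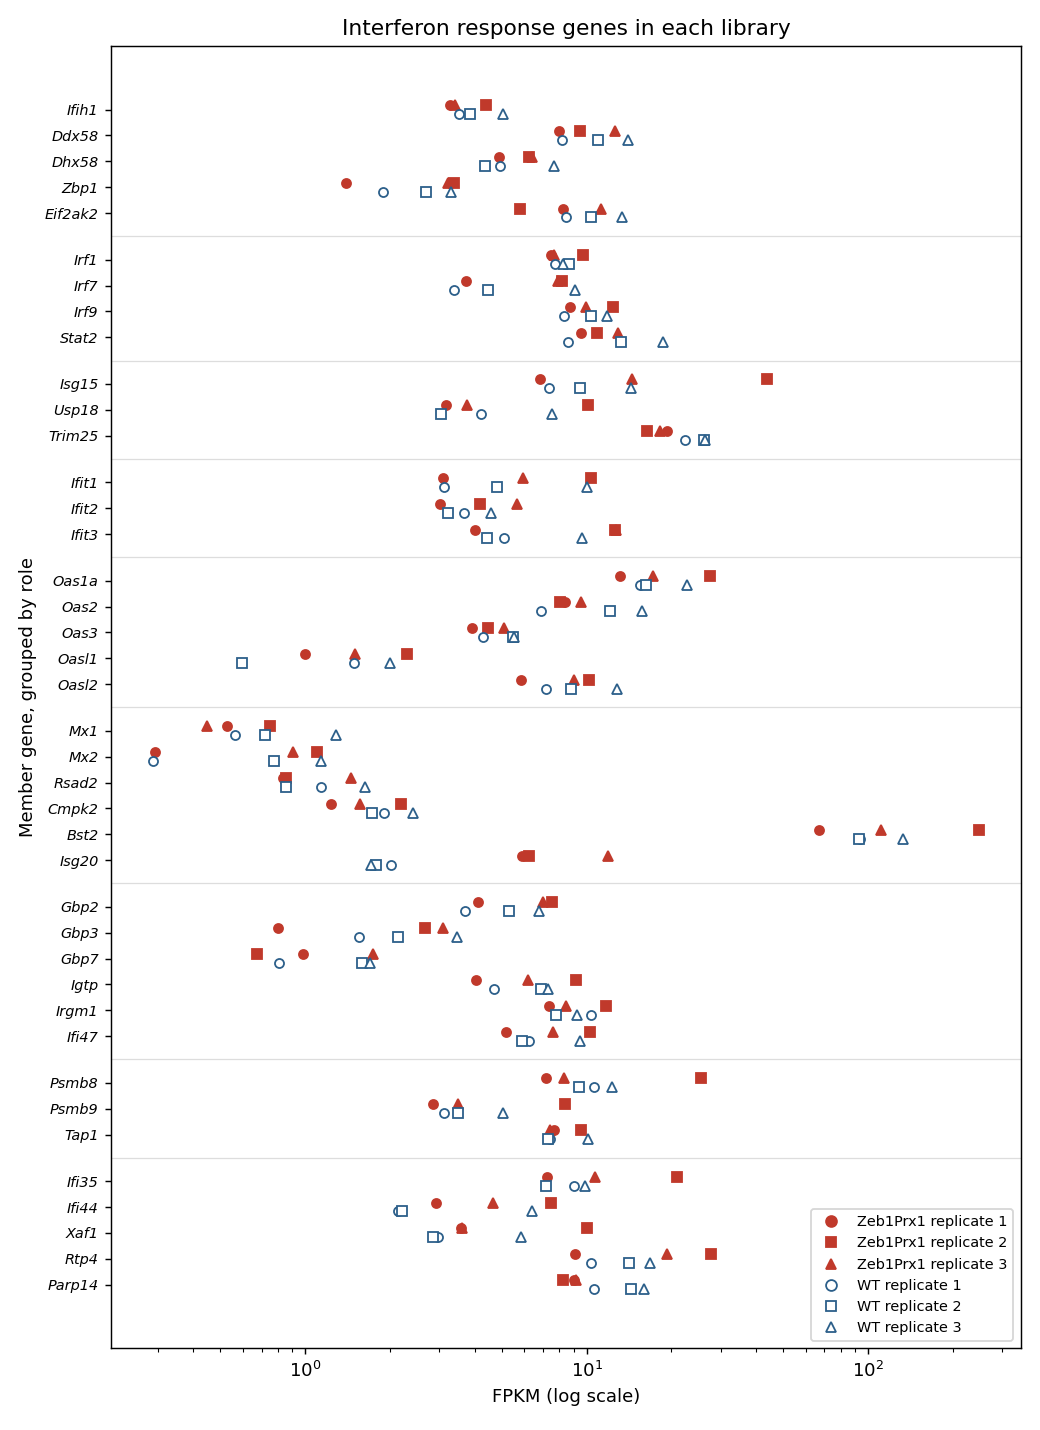
FPKM (horizontal log axis) of all 40 members in each library, grouped by role, with filled red symbols for Zeb1Prx1 and open blue symbols for WT and 1 symbol shape per replicate number. Isg20 separates upward with 5.89 FPKM or more in Zeb1Prx1 and 2.03 FPKM or less in WT, while most members interleave.

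The larger differences lay between libraries of 1 genotype. In WT, replicate 3 was the highest library for 35 of 38 members, which was so for 28.2% of all tested genes. In Zeb1Prx1, replicate 1 was the lowest library for 32 of 38 members, against 32.8% of all genes, and replicate 2 was the highest for 24, against 42.2%. Both patterns held together for 29 members (76.3%), against 9.83% of all genes. The exceptions to WT replicate 3 were Isg20 and Irgm1, highest in WT replicate 1, and Irf1, highest in WT replicate 2. Under the 4 other scalings tried, WT replicate 3 was highest for 35 members in each, and Zeb1Prx1 replicate 1 was lowest for 23 members with equal FPKM sums and for 32 or 33 with the others.

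The size of this spread differed among members. The median SD of log2(FPKM + 1) over 3 libraries was 0.41 in Zeb1Prx1 and 0.30 in WT for the members, beside 0.28 in Zeb1Prx1 and 0.16 in WT over all tested genes. A range above 1, a doubling of FPKM + 1 or more, was reached by 14 members in Zeb1Prx1 and 6 in WT. The shares were 36.8% and 15.8% of the members, against 15.8% and 8.35% of all genes. Between genotypes, the median FPKM of the 38 members was 5.02, 9.31 and 7.61 in Zeb1Prx1 replicates 1, 2 and 3, against 5.01, 5.70 and 9.19 in WT. The low and high ends were thus nearly the same in both genotypes.

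**Figure D3:**
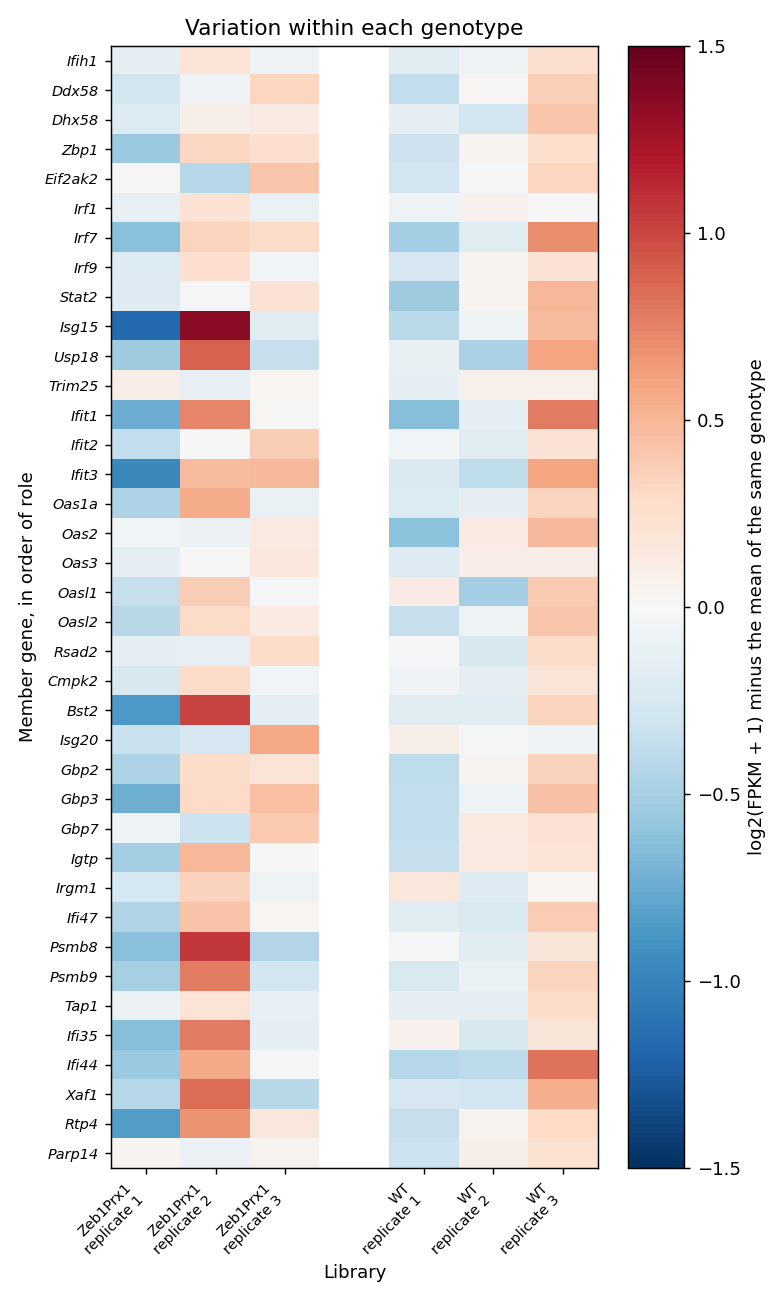
Colour gives log2(FPKM + 1) of each tested member minus the mean of the same genotype, with Zeb1Prx1 libraries on the left and WT libraries on the right. WT replicate 3 is above the mean of its genotype in nearly every row, and Zeb1Prx1 replicate 1 is below in most, with Isg15 and Bst2 spanning the widest ranges in Zeb1Prx1.

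Among the sensors, Ddx58 (RIG-I, a detector of viral RNA) had 7.98, 9.49 and 12.6 FPKM in Zeb1Prx1, against 8.15, 10.95 and 14.1 FPKM in WT. The genotypes interleaved. The RNA helicase gene Ifih1, its regulator Dhx58, the nucleic acid sensor gene Zbp1 and the kinase gene Eif2ak2 also overlapped between genotypes, with log2 changes between -0.33 and 0.07.

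Of the transcription factors, Irf7, which amplifies type I interferon production, had 3.74, 8.20 and 7.94 FPKM in Zeb1Prx1, against 3.37, 4.48 and 9.12 FPKM in WT. Both genotypes held a library under 4 FPKM and one above 8. Stat2, a signal transducer of the type I receptor, had 9.53, 10.9 and 12.9 FPKM in Zeb1Prx1, against 8.59, 13.3 and 18.7 FPKM in WT. The WT range enclosed all Zeb1Prx1 values. Irf9, the DNA-binding partner of STAT2, had 8.75, 12.4 and 9.94 FPKM in Zeb1Prx1, against 8.33, 10.4 and 11.8 FPKM in WT. Irf1 was the steadiest member of this role in WT, with an SD of 0.07 on the log2 scale, and its log2 change was 0.00.

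In the ISG15 system, Isg15 (chromosome 4, 156199424 to 156200818, minus strand) encodes a ubiquitin-like protein that is attached to other proteins. It had 6.83, 43.8 and 14.5 FPKM in Zeb1Prx1, from 83, 597 and 167 fragments, against 7.37, 9.46 and 14.4 FPKM in WT. Replicate 2 of Zeb1Prx1 stood far above the rest, and the genotypes overlapped (log2 change 0.67, SE 0.60, limma adjusted p = 0.575). Usp18, the protease that removes ISG15 and dampens receptor signalling, had 3.17, 10.1 and 3.75 FPKM in Zeb1Prx1, against 4.21, 3.03 and 7.52 FPKM in WT. One library of each genotype, Zeb1Prx1 replicate 2 and WT replicate 3, stood above the others.

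The IFIT proteins bind foreign RNA and hinder its translation, and their genes lie together on chromosome 19. Ifit1 had 3.09, 10.4 and 5.97 FPKM in Zeb1Prx1, against 3.13, 4.80 and 10.1 FPKM in WT. Its lowest and highest values were almost equal in the genotypes. Ifit3 had 4.03, 12.6 and 12.8 FPKM in Zeb1Prx1, against 5.07, 4.44 and 9.67 FPKM in WT. Without Zeb1Prx1 replicate 1, Ifit3 no longer overlapped between genotypes, nor did Isg15, Gbp2, Ifi35 and Rtp4, which brought the members on the higher side to 6 of 38. Of all genes tested in those 5 libraries, 21.8% lay on the higher side without overlap. Ifit2 had 3.01, 4.17 and 5.67 FPKM in Zeb1Prx1, against 3.67, 3.23 and 4.58 FPKM in WT.

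The OAS enzymes sense double-stranded RNA and activate RNase L, and Oas1a, Oas2 and Oas3 are neighbours on chromosome 5. Oas1a had 13.1, 27.5 and 17.2 FPKM in Zeb1Prx1, against 15.5, 16.3 and 22.8 FPKM in WT. Oas2 had 8.40, 8.05 and 9.58 FPKM in Zeb1Prx1, against 6.87, 12.1 and 15.8 FPKM in WT, so its spread lay in WT. Oasl2, an OAS-like protein gene, had 5.87, 10.2 and 9.02 FPKM in Zeb1Prx1, against 7.17, 8.81 and 12.8 FPKM in WT. All 5 genes of this family overlapped between genotypes, with Oas3 and Oasl1 at log2 changes of -0.15 and 0.16.

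Among the other antiviral effectors, Bst2, the membrane tether that holds budding virions, was the most abundant member. It had 67.1, 248 and 111 FPKM in Zeb1Prx1, against 93.7, 92.9 and 133 FPKM in WT. Zeb1Prx1 held both the lowest and the highest library. Cmpk2, a mitochondrial nucleotide kinase gene next to Rsad2, had 1.24, 2.19 and 1.57 FPKM in Zeb1Prx1, against 1.90, 1.73 and 2.42 FPKM in WT. Rsad2 (viperin) had a log2 change of -0.11. The dynamin-like restriction factor genes Mx1 and Mx2 were the members that failed the filter. Mx1 had 0.526, 0.748 and 0.45 FPKM in Zeb1Prx1, against 0.563, 0.722 and 1.29 FPKM in WT. Mx2 had 0.293, 1.11 and 0.906 FPKM in Zeb1Prx1, against 0.287, 0.774 and 1.14 FPKM in WT, and its smallest library held 17 fragments.

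The interferon-inducible GTPases, which act on vacuoles of intracellular pathogens, overlapped between genotypes in 6 of 6 genes. Gbp3 had 0.8, 2.67 and 3.09 FPKM in Zeb1Prx1, against 1.56, 2.13 and 3.47 FPKM in WT. Igtp had 4.03, 9.14 and 6.22 FPKM in Zeb1Prx1, against 4.67, 6.88 and 7.31 FPKM in WT. In both genes the lowest library was Zeb1Prx1 replicate 1. Irgm1 had 7.35, 11.7 and 8.46 FPKM in Zeb1Prx1, against 10.4, 7.78 and 9.26 FPKM in WT, and Gbp2, Gbp7 and Ifi47 had log2 changes between -0.16 and 0.20.

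Of the genes for class I peptide supply, Psmb8, an immunoproteasome subunit gene, had 7.19, 25.5 and 8.33 FPKM in Zeb1Prx1, against 10.6, 9.39 and 12.3 FPKM in WT. Zeb1Prx1 replicate 2 stood above all WT libraries, and the other 2 mutant libraries stood below them. Psmb9, the gene of a second subunit, had 2.86, 8.35 and 3.49 FPKM in Zeb1Prx1, against 3.11, 3.48 and 5.05 FPKM in WT. Tap1, the peptide transporter gene that overlaps Psmb9 on the other strand, had 7.64, 9.54 and 7.42 FPKM in Zeb1Prx1, against 7.40, 7.32 and 10.1 FPKM in WT. Without Zeb1Prx1 replicate 2, Psmb8, Ifih1, Irf1 and Cmpk2 joined Trim25 and Parp14 as members lying wholly below WT, 6 of 38, beside 17.2% of all genes tested in those libraries.

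The remaining induced genes were led by Rtp4, a chaperone of membrane receptors, with 9.08, 27.7 and 19.4 FPKM in Zeb1Prx1, against 10.4, 14.1 and 16.8 FPKM in WT. Ifi35, which encodes a partner of other interferon-induced proteins, had 7.24, 21.0 and 10.7 FPKM in Zeb1Prx1, against 9.02, 7.16 and 9.88 FPKM in WT. Ifi44 had 2.91, 7.50 and 4.67 FPKM in Zeb1Prx1, against 2.13, 2.21 and 6.42 FPKM in WT. Xaf1, a pro-apoptotic gene, had 3.58, 10.0 and 3.60 FPKM in Zeb1Prx1, against 2.96, 2.84 and 5.85 FPKM in WT. For all 4, replicate 2 was the highest mutant library and replicate 3 the highest WT library. Without WT replicate 3, Ifi44, Xaf1 and Tap1 lay wholly above WT along with Isg20, 4 of 36 members tested, beside 16.4% of all genes. Without WT replicate 1, Oas2, Stat2 and Oas3 lay wholly below WT along with Trim25 and Parp14, 5 of 37 members tested, beside 18% of all genes. Each of these leave-one-out comparisons sets 2 libraries against 3.

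The library pattern was set beside gene length. For each library, the shift was taken as log2(FPKM + 1) minus the mean of the other 2 libraries of its genotype, so shifts within a genotype depend on each other. In Zeb1Prx1 replicate 2, the median shift of all tested genes was 0.42 in the shortest of 4 equal length classes (up to 2265 bases), then 0.18, -0.05 and -0.31 in the longest class (above 6341 bases). The members shifted by 0.92, 0.50, 0.14 and 0.00 in the same classes, with 8, 13, 12 and 5 members in each. In Zeb1Prx1 replicate 1, all genes shifted by -0.32, -0.14, 0.04 and 0.23, and the members by -1.11, -0.75, -0.25 and -0.23. In WT replicate 3, all genes shifted by -0.01, -0.03, -0.02 and -0.01, whereas the members shifted by 0.47, 0.57, 0.41 and 0.37. Over all 38 members the median shift was -0.59 in Zeb1Prx1 replicate 1, 0.44 in Zeb1Prx1 replicate 2 and 0.49 in WT replicate 3. With the length trend taken out of each library, these medians were -0.49, 0.39 and 0.50 in the same order.

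**Figure D4:**
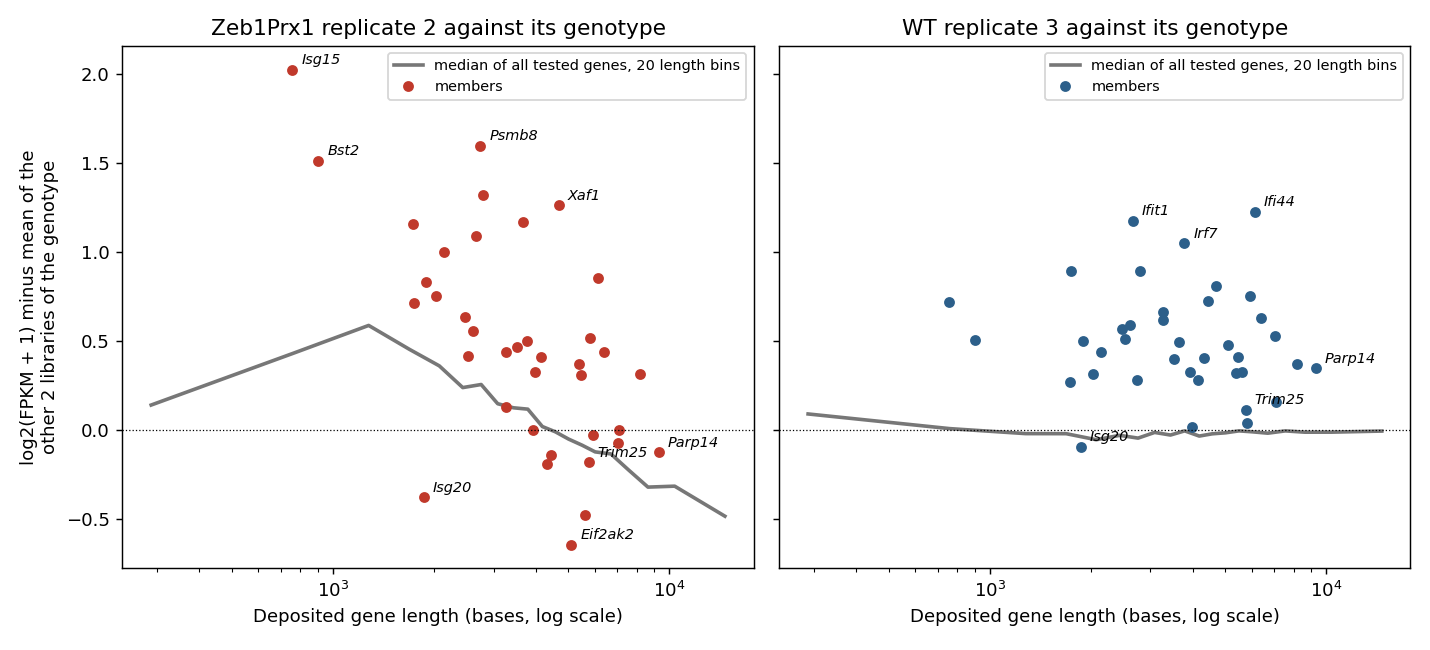
Shift of each tested member (points) and median shift of all tested genes in 20 bins of length (grey line) against deposited gene length in bases on a log axis, for Zeb1Prx1 replicate 2 on the left and WT replicate 3 on the right. On the left the grey line rises over the shortest bins and then falls with length, and Isg15 (2.03) and Psmb8 (1.60) stand highest. On the right the grey line stays near 0 and 37 of 38 members lie above 0.

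Isg20 did not follow the other short members in Zeb1Prx1 replicate 2 or WT replicate 3. In Zeb1Prx1 replicate 1 it went the same way, with a shift of -0.49, and 0 of the 8 members of the shortest class lay above 0. In Zeb1Prx1 replicate 2 it shifted by -0.38, while the other 7 members of the shortest class shifted by 0.71 to 2.03. In WT replicate 3 it shifted by -0.10 and was the 1 member of 38 below 0. Members whose promoters held the response element core shifted by a median of 0.50 in WT replicate 3 (13 members), and members with promoters lacking these letters by 0.41 (19 members).

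Some marker genes of other cells moved with the high libraries. The summed macrophage list was 11091, 22026 and 12928 FPKM in Zeb1Prx1 replicates 1, 2 and 3, and 13476, 16383 and 15481 FPKM in WT. In Zeb1Prx1 it ran in the order of the summed members (275, 640 and 407 FPKM), but in WT its highest library was replicate 2, while the members summed to 319, 353 and 484 FPKM. Lyz2 alone gave most of the list's sum. Of its 23 tested genes, 20 had a log2 change below 0, as had 6034 of 12534 genes, and 9 lay wholly below WT, against 11.8% of all genes. Ccr2, a receptor gene of inflammatory monocytes, singled out after its values were seen, had 0.69, 3.75 and 0.63 FPKM in Zeb1Prx1, against 0.323, 0.25 and 3.28 FPKM in WT. It was highest in the same 2 libraries as most members, but the list did not share 1 order. Its 24 genes that reached 1 FPKM in some library were counted. Zeb1Prx1 replicates 1, 2 and 3 were the highest mutant library for 8, 12 and 4, against 31.6%, 42.2% and 26.2% of all tested genes. WT replicates 1, 2 and 3 were the highest WT library for 3, 9 and 12, against 38.3%, 33.5% and 28.2%. Csf1r, the receptor gene for a macrophage growth factor, had 376, 342 and 252 FPKM in Zeb1Prx1, against 453, 564 and 456 FPKM in WT, highest among mutant libraries where most members were lowest. The part of these cells in the results was not tested.

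Other lists had lower sums. The dendritic cell list, which shares Bst2 with the members, summed to 88.2 to 271 FPKM in Zeb1Prx1 and 120 to 161 FPKM in WT, and 8 of its 12 genes stayed under 1 FPKM in all libraries, with Flt3, Ly6d and Cd209a at 0. Summed neutrophil genes were 1.32 to 1.59 FPKM in Zeb1Prx1 and 0.797 to 1.79 FPKM in WT, with S100a9, Retnlg, Ngp and Cxcr2 at 0. Lymphocyte genes summed to 0.636 to 1.87 FPKM in Zeb1Prx1 and 1.12 to 1.63 FPKM in WT, with Ncr1, Gzma and Prf1 at 0. Osteoclast genes summed to 66.5 to 82.6 FPKM in Zeb1Prx1 and 53.0 to 63.5 FPKM in WT. Most of that sum was Ctsk, at means of 57.1 FPKM in Zeb1Prx1 and 34.1 FPKM in WT, while 3 of the 5 osteoclast genes tested had a log2 change below 0 and their median was -0.51. Endothelial genes summed to 11.8 to 19.1 FPKM in Zeb1Prx1 and 19.7 to 27.8 FPKM in WT, with Cldn5 at 0. Most of that sum was Eng, at means of 13.2 FPKM in Zeb1Prx1 and 20.8 FPKM in WT. Of the 10 endothelial genes, 8 stayed under 1 FPKM in all libraries, Pecam1 and Cdh5 among them.

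Interferon genes themselves were near the detection limit. Of 13 listed ligand genes, 10 had 0 fragments in all 6 libraries, Ifnb1 and Ifng among them, and a count of 0 allows up to 3 fragments, or 0.163 to 0.204 CPM (counting error only). Ifnz, a type I interferon gene, had 0, 1 and 2 fragments in Zeb1Prx1, against 13, 2 and 14 fragments in WT. Ifne and Ifnk had 4 fragments each over all libraries.

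The interferon receptor genes were above 1 FPKM in all 6 libraries, except Ifnlr1. Of the 118 other pathway genes listed, 88 passed the filter and 0 were called by limma or by voom. At an unadjusted p under 0.05, 1 was higher (8.15% of all genes) and 11 were lower (6.98%). Without overlap 1 was higher (12.6% of all genes) and 17 were lower (11.8%). The median log2 change was -0.15, beside 0.02 over all genes. The type I receptor chain gene Ifnar1 had 21.0, 16.0 and 17.5 FPKM in Zeb1Prx1, against 21.2, 23.5 and 23.2 FPKM in WT, without overlap. Its partner Ifnar2 had 17.6, 19.1 and 19.3 FPKM in Zeb1Prx1, against 17.6, 20.7 and 20.8 FPKM in WT. The gamma receptor genes Ifngr1 and Ifngr2 and the shared chain gene Il10rb overlapped between genotypes, with log2 changes of -0.23, -0.21 and -0.23, and Ifnlr1 stayed under 1 FPKM.

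A further 7 pathway genes met the naming rule. Socs1, a feedback inhibitor of the receptor kinases, had 3.34, 2.65 and 3.24 FPKM in Zeb1Prx1, against 1.97, 1.72 and 2.17 FPKM in WT, and was the 1 gene on the higher side without overlap (log2 change 0.46, limma adjusted p = 0.281). Tlr7, an endosomal RNA sensor gene, had 43.9, 32.3 and 27.9 FPKM in Zeb1Prx1, against 62.0, 56.6 and 69.6 FPKM in WT. Tlr9, the matching DNA sensor gene, had 10.2, 3.61 and 2.54 FPKM in Zeb1Prx1, against 12.99, 11.5 and 18.9 FPKM in WT. Both lay wholly below WT, as did 9 of the 23 tested genes of the macrophage and monocyte list. One of these was Adgre1 (164, 119 and 117 FPKM in Zeb1Prx1, against 215, 230 and 250 FPKM in WT). The other tested genes of that list overlapped between genotypes, Lyz2 and Tyrobp among them. The part of macrophage content was not tested. The guanylate-binding protein gene Gbp9, the nuclear body gene Pml, the DNA sensor family gene Ifi207 and the RNA editing gene Adar had log2 changes of -0.60, -0.56, -0.80 and -0.47 without overlap. The adjusted p of these 7 genes by limma lay between 0.264 and 0.292.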

How the data were processed

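The authors deposited FPKM values per gene and library. The submitters' processing notes name the build mm10. The aligner, the counting tool and strand handling were not given in the sources used here. Coordinates of 39 of the 40 members equal those of GENCODE M21. Fragment numbers were recovered from FPKM and gene length, and 127408 of 127408 values above 0 came out whole (relative tolerance 1e-06); members had 17 to 4044 fragments per library. Exons of 17 members overlap another annotated gene, 6 on the same strand (Igtp with Irgm2 and Irf9 with Rnf31 among them), and close copies (the Oas1, Ifit, Gbp and Mx genes) are uncertain likewise.

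Genes with at least 1 FPKM in at least 3 of 6 libraries were tested on log2(FPKM + 1) by limma 3.58.1 in R 4.3.3, with the prior variance following the mean level and Benjamini-Hochberg adjustment at 0.05, after a check on simulated data. Alternatives were pseudocounts, filters, scalings, the replicate block, no trend, library weights, voom and leaving out each library; removal of the length trend was chosen after seeing the data, as were the scalings applied to the library order. Values per library are given for members without overlap, members with a range above 1 on the log2 scale in a genotype and the most abundant further member of a role. Of the other pathway genes, the receptors and up to 6 per direction with the smallest p among those without overlap were named. Another pathway gene is not reported here. Members and lists were chosen with earlier results of these data known. Cell type lists were macrophage and monocyte, dendritic cell, neutrophil, lymphocyte, osteoclast, endothelial and skeletal stromal.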

Additional observations from a re-analysis of the deposited data

How the results depend on the processing

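The counts of members at an unadjusted p under 0.05 were 1 higher and 2 lower, beside 8.15% and 6.98% of all genes. Those without overlap were also 1 higher and 2 lower, beside 12.6% and 11.8% of all genes. A mean FPKM of at least 5 removed Isg20, which left 0 higher in both counts. Equal FPKM sums moved the median log2 change of all genes from 0.02 to -0.12 and that of the members to -0.13, and 5 members then lay wholly below WT, beside 16.2% of all genes. Library weights called 1 of 38 members, Isg20, and 3 of 88 other pathway genes, Irf8, Tlr7 and Gbp9, beside 3.57% of all tested genes. Removing the length trend left 1 lower in both counts. Of all 12534 genes, 1749 then had an unadjusted p under 0.05 in either direction, and 11.3% lay wholly below WT. With the replicate number as a block, 1 member was lower at an unadjusted p under 0.05 and 0 were called. In either direction, 1347 of 12534 genes had such a p with the block. Deviations of same-numbered libraries correlated at 0.03, -0.41 and 0.08. Other pairings ran from -0.48 (Zeb1Prx1 replicate 3 with WT replicate 1) to 0.46 (Zeb1Prx1 replicate 3 with WT replicate 2). Deviations within a genotype depend on each other, so these values cannot decide whether the numbers pair the samples. Leaving out 1 library at a time gave 1 to 4 members higher and 0 to 3 lower at an unadjusted p under 0.05. The 4 higher came without Zeb1Prx1 replicate 1, where 2821 of 12242 genes had such a p in either direction. The fewest genes were 1118 of 12285, without WT replicate 2. Without overlap, 1 to 6 members were higher (15.6% to 21.8% of all genes) and 2 to 6 lower (14.7% to 21.4%). Medians ran from -0.13 to 0.26, and 0 members were called in each. Isg20, Trim25 and Parp14 kept their directions in every alternative that tested them.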
